A study of Mus musculus with 8 samples.

Results

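The genes described here are the ligands and receptors that steer growing axons: semaphorins with their plexin and neuropilin receptors, ephrins with Eph receptors, netrins with Dcc and Unc5 receptors, and Slits with Robo receptors. They were taken from the deposited gene table by their names, with the condition that the mean over all 8 libraries was at least 1 TPM (a transcript's share of the library, corrected for transcript length and scaled to a fixed total). Of 23845 genes in the table, 72 matched the names and 64 met the condition. The 8 left out were Sema3g, Unc5cl, Plxna4os1, Robo4 and Epha1, listed at 0 TPM in every library, Ntn5 with a mean of 0.125 TPM, Robo3 with 0.5 and Sema3a with 0.75. The members just inside the limit were Epha8 with a mean of 1.625 TPM, Efna1 with 1.75 and Epha2 with 2.25. Unc50 matched by its letters alone: it is no netrin receptor, and it is counted among the 64 but kept apart from the 13 guidance families.

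The RNA came from primary hippocampal neurons of mouse embryos at embryonic day 19. At 13 to 15 days in vitro they received lentivirus with an shRNA that was either scrambled or directed at CNOT7, and they were used at 17 to 19 days in vitro. RNA bound to poly(U) agarose was either eluted whole at 75 °C (total poly(A) RNA) or first washed at 50 °C, which per the labels takes off tails under 50 nucleotides, and then eluted (long-tail RNA). The 4 groups, scrambled total, knockdown total, scrambled long-tail and knockdown long-tail, had 2 libraries each. Every group received virus, and the labels name neither the mouse strain nor the cultures behind each library. The p-values therefore measure only the spread between these libraries, which may be technical.

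Guidance ligands are secreted or membrane-bound proteins that attract or repel the growth cone, the moving tip of an axon. Slits repel through Robos, semaphorins act mostly as repellents through plexins, with neuropilins as coreceptors for the secreted class 3, ephrins and Ephs are both membrane-bound and signal in both directions, and netrin attracts through Dcc and repels through Unc5. In the hippocampus many of them stay expressed after wiring is complete and act on dendritic spines and synapses. CNOT7 is a deadenylase of the CCR4-NOT complex, which removes adenosines from the tails of mRNAs.

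Library sums of TPM ran from 999689 to 999809, and the read depth behind the values is unknown. The authors rounded TPM to whole numbers, so that 1 TPM is a large step for the members at 1 to 5 TPM. Knockdown long-tail library 2 was the outermost on the first principal component, at 56.6 where the remaining 7 lay between -30.2 and 15.8 (50.1% of the variance), and the ribosomal RNA precursor Rn45s took 2.90% of its TPM against 18.6% in knockdown long-tail library 1. Cnot7, the targeted gene, was at 42 and 36 TPM in the scrambled total libraries, 12 and 16 in the knockdown total libraries, 28 and 31 in the scrambled long-tail libraries and 9 and 11 in the knockdown long-tail libraries. The knockdown minus scrambled difference of Cnot7 was -1.42 in total RNA (log2(TPM + 1) scale, SE 0.187, limma adjusted p = 0.153) and -1.48 in long-tail RNA (SE 0.187, limma adjusted p = 0.173). The authors' deposited tables give log2 fold changes for Cnot7 of -1.12 (adjusted p 3.96e-05) in total RNA and -1.18 (adjusted p 1.02e-05) in long-tail RNA, after their sign, which was opposite to the TPM in every entry, was turned. Among neuronal markers, Gad1 was at 279 and 265 TPM in the scrambled and 211 and 207 TPM in the knockdown total libraries. Gad2 lay the other way, at 83 and 84 TPM against 104 and 100 TPM. Neurod6 was at 195 and 147 TPM against 286 and 228 TPM, while Neurod2, at 105 and 59 TPM against 81 and 47 TPM, overlapped. Of 9 excitatory markers 4 were higher and 5 lower in knockdown total RNA, and of 9 inhibitory markers 3 were higher and 5 lower. The cultures also held glia. Summed oligodendrocyte lineage markers were at 2189 and 1991 TPM in scrambled total RNA against 1394 and 1351 in knockdown total RNA, with 16 of 16 markers lower, and at 1760 and 2140 against 1174 and 1457 in long-tail RNA. Summed astrocyte markers were at 5970 and 4776 against 5843 and 3842 in total RNA. Of these 11 markers 10 were lower in total RNA, with a median of -0.29 against -0.07 over all genes. In long-tail RNA 9 were lower, with a median of -0.46 against -0.10 over all genes. The microglia markers Aif1, Itgam, Tmem119 and Cx3cr1 were listed at 0, with a microglia sum of 22 and 13 against 15 and 8. The endothelial markers Tek, Cldn5 and Pecam1 were also listed at 0, and the summed endothelial and mural markers were at 256 and 352 against 230 and 331. In bulk cultures fewer cells of a type and less RNA per cell cannot be told apart.

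All 64 genes together made up 0.188% to 0.200% of TPM in the total libraries, 0.142% to 0.144% in the scrambled long-tail libraries, and 0.157% and 0.111% in knockdown long-tail libraries 1 and 2. In total RNA the plexins were the family with the highest sum, at 447 and 460 TPM in scrambled libraries, followed by the transmembrane semaphorins at 407 and 339 TPM, below the plexins in both libraries. The EphA receptors came next at 188 and 183 TPM, the Dcc and Unc5 receptors at 159 and 134, the neuropilins at 124 and 108, the Slits at 120 and 116, and the EphB receptors at 103 and 99. The ranges of neuropilins and Slits overlapped. Ephrins-B stood at 90 and 103 TPM, ephrins-A at 96 and 73, class 3 semaphorins at 64 and 74, netrins at 56 and 69, the single GPI-anchored semaphorin Sema7a at 59 and 38, and Robos at 42 and 44. Single members had means of 1.62 to 117 TPM, with a median of 17 TPM against 19.8 TPM over all tested genes. Several families were led by 1 gene. Epha4 held from 58.9% to 69.2% of EphA TPM over the 8 libraries, Unc5a from 59.3% to 83.1% of the Dcc and Unc5 receptors, Ntn4 from 63.3% to 71.0% of the netrins and Efna3 from 65.4% to 78.6% of the ephrins-A. Dcc, the receptor through which netrin attracts, was at 12 and 14 TPM in the scrambled total libraries, where Unc5a, a repulsive receptor, was at 120 and 95.

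**Figure D1:**
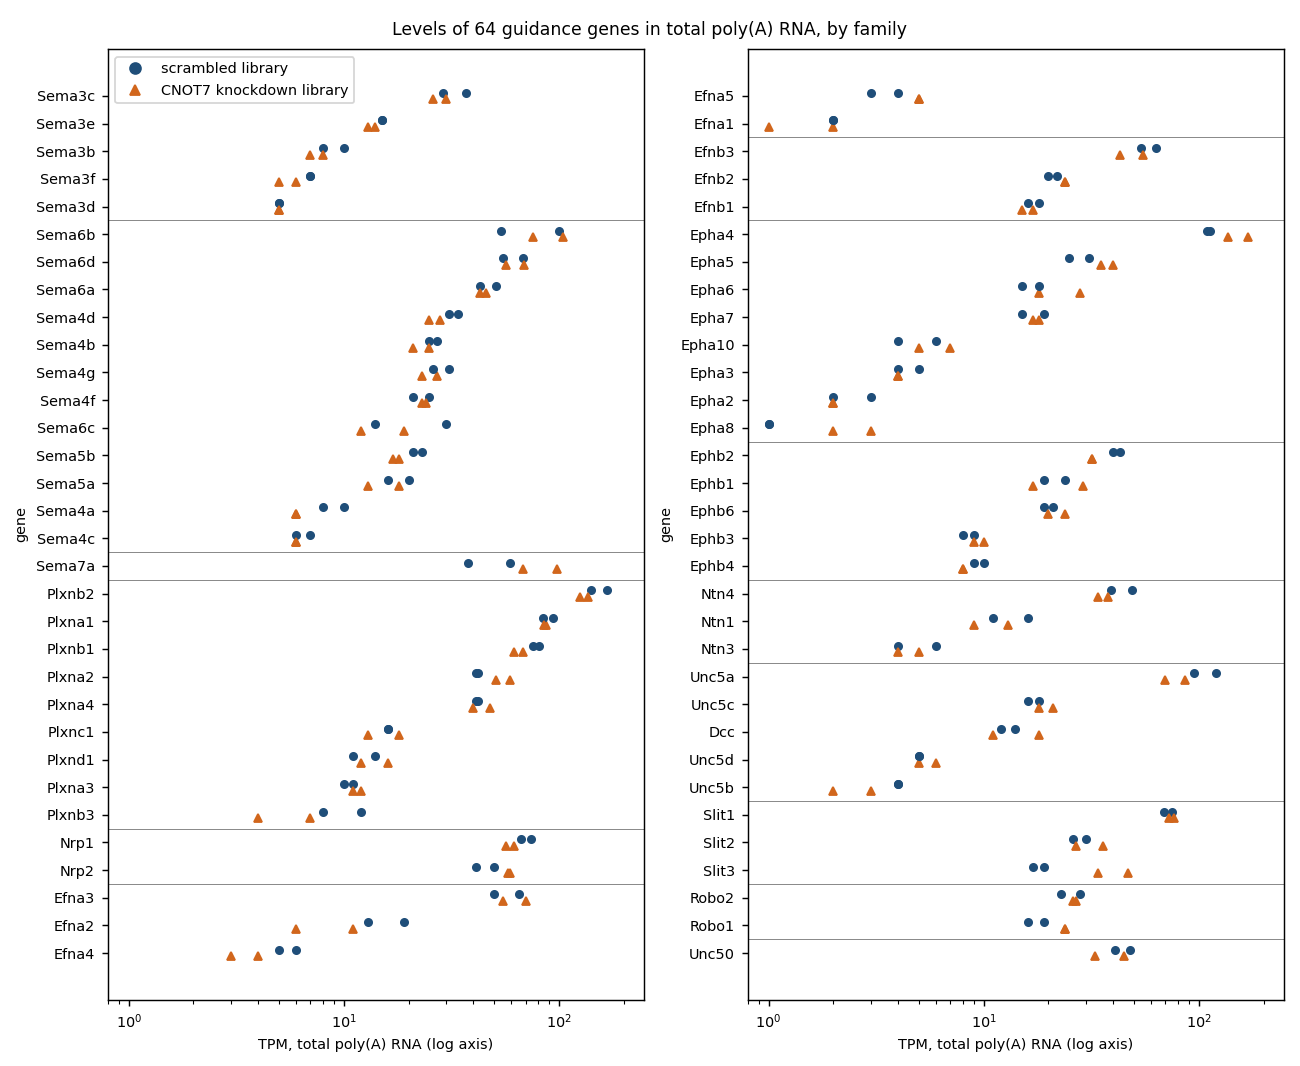
TPM of each of the 64 genes in the scrambled total libraries (blue circles) and knockdown total libraries (orange triangles), 2 of each, on a log axis and grouped by family. Slit3 and Sema7a have both triangles to the right of both circles, and Efna2 and Unc5a have both to the left.

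**Figure D2:**
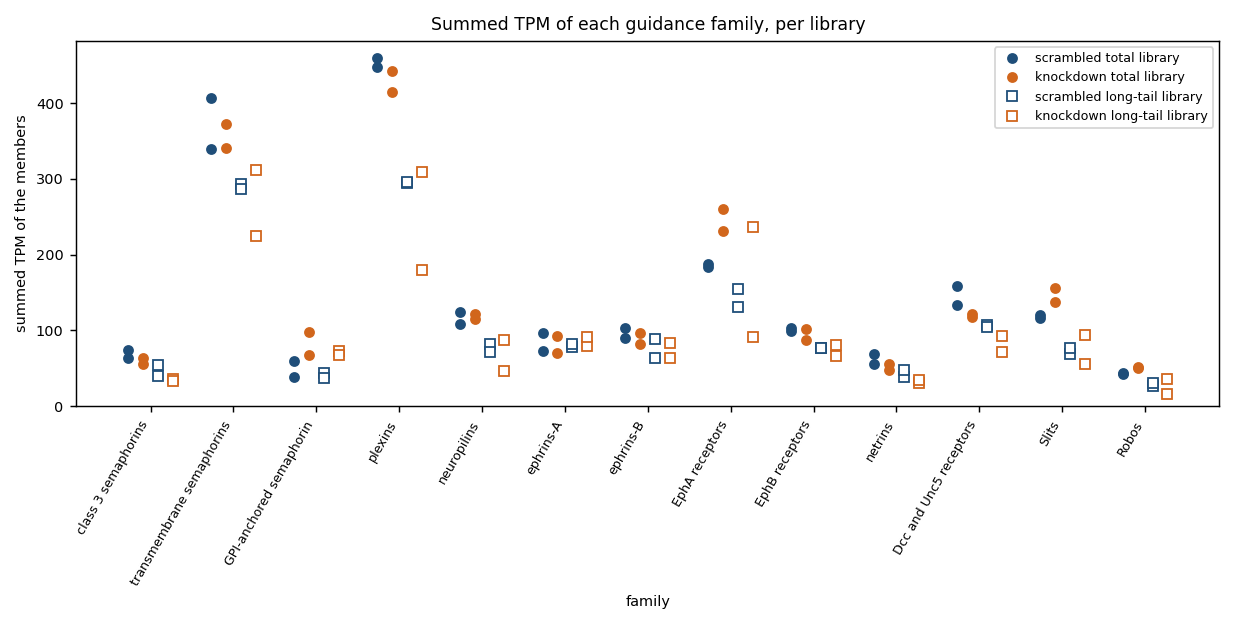
Summed TPM of the members of each family in each of the 8 libraries (circles for total RNA, squares for long-tail RNA, blue for scrambled, orange for knockdown). The EphA sum is 188 and 183 in scrambled total and 260 and 231 in knockdown total libraries, and the long-tail sums of most families lie below the total sums.

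Because the labels separate RNA by tail, the ends of the 3′ UTRs were searched for the cytoplasmic polyadenylation element, a U-rich motif bound by CPEB proteins near the site of polyadenylation. The letters searched were TTTTAT and TTTTAAT on the sense strand in the last 150 nt of the 3′ UTR of the longest coding transcript (GENCODE M21, GRCm38). At least 1 match was present in 22 of 64 members (34.4%), against 3003 of 12128 tested genes with such a model (24.8%). The windows of 30 nt below belong to members that the results return to, and the capitals mark the match. Slit3, on chr11:35708427-35708456 of the plus strand, and Slit2, on chr5:48307650-48307679 of the plus strand, both carry it. The Epha4 window lies on chr1:77367260-77367289 of the minus strand, that of Efna2 on chr10:80189971-80190000 of the plus strand, that of Unc5b on chr10:60762626-60762655 of the minus strand and that of Ntn4 on chr10:93747153-93747182 of the plus strand.
Slit3: tatttgttgtgtTTTTATaaacagctgttt
Slit2: tgtgctggcaagTTTTATgtcaacttgaca
Epha4: ttatttatggtcTTTTATacctagtttgta
Efna2: aagtctgtatttTTTTATaataaaatggac
Unc5b: aacaagattaatTTTTATgaaataaattat
Ntn4: ttgtgactttgtTTTTATatttcatgtatg
The last 150 nt of Slit1, Sema7a and Unc5a held neither string of letters.

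Between knockdown and scrambled libraries in total RNA, no member passed at an adjusted p under 0.05 (limma, Benjamini-Hochberg over 13681 genes), and neither did any other gene (0%). The authors' deposited tables hold 104 genes for total and 97 for long-tail RNA. The smallest adjusted p of a member was 0.303. At an unadjusted p under 0.05, 9 members stood out, which is 14.1% of 64 against 6.34% of all tested genes. Of these 4 were higher (2.05% of all genes) and 5 lower in knockdown (4.3% of all genes). Centred on each library's median, the count was 6, with 4 higher (385 of all genes) and 2 lower (292 of all genes). When TPM were rescaled without Rn45s it was 5, with 3 higher (371 of all genes) and 2 lower (410 of all genes). With 1 library left out the count changed much. It was lowest without knockdown total library 2 and highest without either knockdown long-tail library, as was the share over all genes. The members split into 29 higher, 34 lower and 1 without a difference, where 60.2% of all genes were lower and 32.6% higher. Their median was -0.07 on the log2(TPM + 1) scale, as was the median over all genes, and after centring on each library's median 32 members lay on each side of 0. Both knockdown libraries lay above both scrambled libraries for 10 members (8.68% of all genes did so) and below them for 16 members (20.1% of all genes). In long-tail RNA again no member and no other gene passed (0%). There 7 members had an unadjusted p under 0.05 (8.72% of all genes), 3 higher (2.25% of all genes) and 4 lower (6.47% of all genes). This count rose much without knockdown long-tail library 1 and fell without scrambled long-tail library 2, as did the share over all genes. After centring there were 4 such members, 3 higher (653 of all genes) and 1 lower (314 of all genes). Without overlap, 4 lay above (8.91% of all genes) and 16 below (17.1% of all genes). In both fractions at once, 3 members lay above (2.71% of all genes), namely Slit3, Sema7a and Epha8, and 11 lay below (9.49% of all genes).

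**Figure D3:**
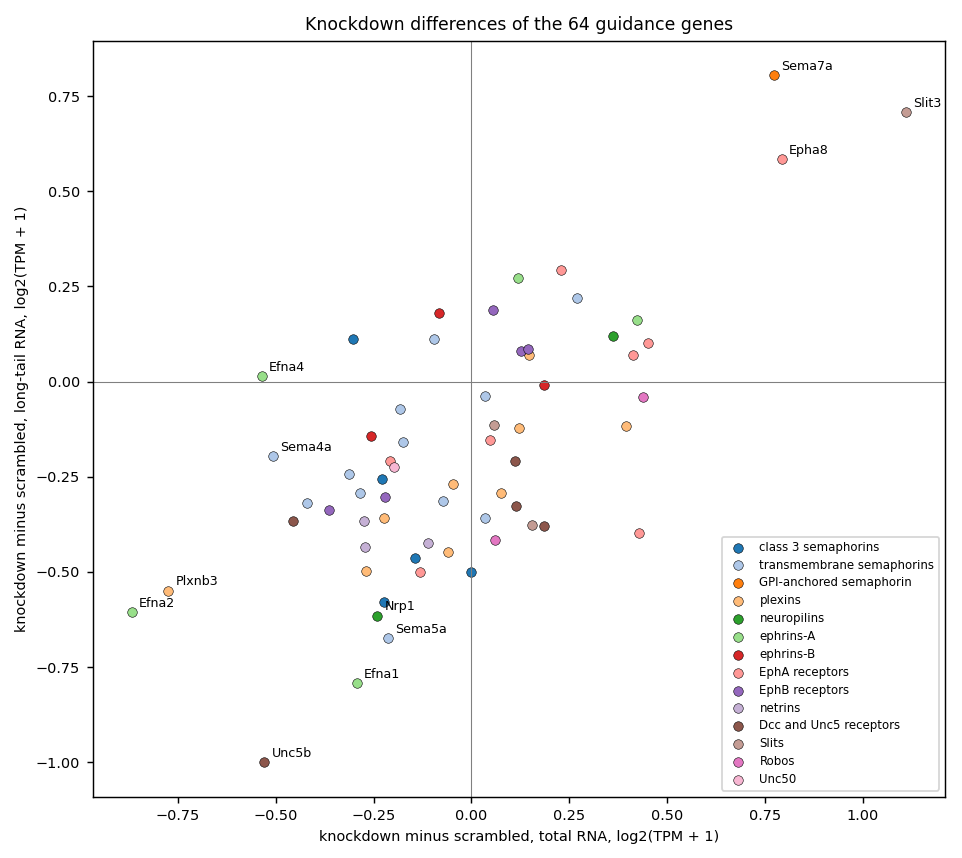
Knockdown minus scrambled difference of each of the 64 genes on the log2(TPM + 1) scale, total RNA on the x axis and long-tail RNA on the y axis, coloured by family. Slit3 (1.11 and 0.71), Sema7a (0.77 and 0.81) and Epha8 (0.79 and 0.58) lie apart in the upper right, and Unc5b (-0.53 and -1.0) is lowest on the y axis.

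Slit3, a secreted repellent of the Slit family (ENSMUSG00000056427, chr11:35121224-35708507 on the plus strand of GRCm38), was the guidance gene with the largest difference in total RNA. Its level was 19 and 17 TPM in the scrambled total libraries and 34 and 47 TPM in the knockdown total libraries. In long-tail RNA it was 10 and 11 TPM in scrambled and 21 and 15 TPM in knockdown libraries. Every knockdown library thus lay above every scrambled library of the same fraction. The difference was 1.11 in total RNA (SE 0.225, 95% interval 0.55 to 1.67, unadjusted p = 0.00312, limma adjusted p = 0.403) and 0.71 in long-tail RNA (SE 0.225, interval 0.15 to 1.27, limma adjusted p = 0.503). Slit3 was the only member in either of the authors' deposited tables: the one for total RNA gives it a log2 fold change of 1.03 with an adjusted p of 0.000724, and the one for long-tail RNA does not list it.

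The other Slits are also secreted and bind Robos, and all 3 Slits and both Robos had differences above 0 in total RNA. From here on library values are given in pairs (library 1, then 2) for scrambled total, knockdown total, scrambled long-tail and knockdown long-tail RNA. Slit1 was at 75 and 69, 77 and 73, 44 and 48, and 56 and 32 TPM. Slit2 was at 26 and 30, 27 and 36, 15 and 18, and 17 and 9 TPM. Both overlapped between scrambled and knockdown in each fraction, with differences in total RNA of 0.06 for Slit1 (interval -0.58 to 0.70) and 0.15 for Slit2 (interval -0.62 to 0.93). Both intervals overlap that of Slit3, and the difference between the Slits was not tested. Within the family, Slit3 supplied 15.8% and 14.7% of Slit TPM in scrambled total libraries and 24.6% and 30.1% in knockdown total libraries. In long-tail RNA its part of the family was 14.5% and 14.3% in scrambled and 22.3% and 26.8% in knockdown libraries, and it lay higher in each knockdown library although the long-tail libraries differed much in the family's sum. The Slit2 and Slit3 genes each span a copy of the microRNA gene for miR-218, Mir218-1 and Mir218-2, whose mature form is the same (RefSeq, GRCm38.p6), printed here because Slit3 was the member with the largest difference; the capitals mark its seed, bases 2 to 8.
miR-218-5p: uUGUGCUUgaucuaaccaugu
Both microRNA genes were listed at 0 TPM in all 8 libraries. These libraries were made from RNA selected by its poly(A) tail, so the zeros say nothing about the level of mature miR-218.

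Robo1 and Robo2 are the receptors of the Slits. Robo1 was at 19 and 16 TPM in scrambled total and 24 and 24 in knockdown total libraries, without overlap, and at 12 and 12 and then 19 and 7 in the long-tail libraries. Robo2 was at 23 and 28, 26 and 27, 15 and 19, and 17 and 9 TPM, overlapping in total RNA. The Robo1 difference in total RNA was 0.44 (SE 0.413, limma adjusted p = 0.980), with an error taken from the spread within all 4 groups. In long-tail RNA its 2 knockdown libraries lay on either side of the scrambled ones.

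Sema7a, a semaphorin held in the membrane by a lipid anchor, had the second pattern of this kind. It was at 59 and 38, 98 and 68, 43 and 37, and 73 and 68 TPM. The differences were 0.77 (SE 0.266, interval 0.11 to 1.43, limma adjusted p = 0.709) and 0.81 (SE 0.266, interval 0.14 to 1.47, limma adjusted p = 0.516). Its receptor Plxnc1 was at 16 and 16, 13 and 18, 9 and 12, and 9 and 6 TPM, with differences of -0.06 and -0.45 and libraries that overlapped or touched. The Sema7a transcript is 3297 nt long, shorter than the median member.

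**Figure D4:**
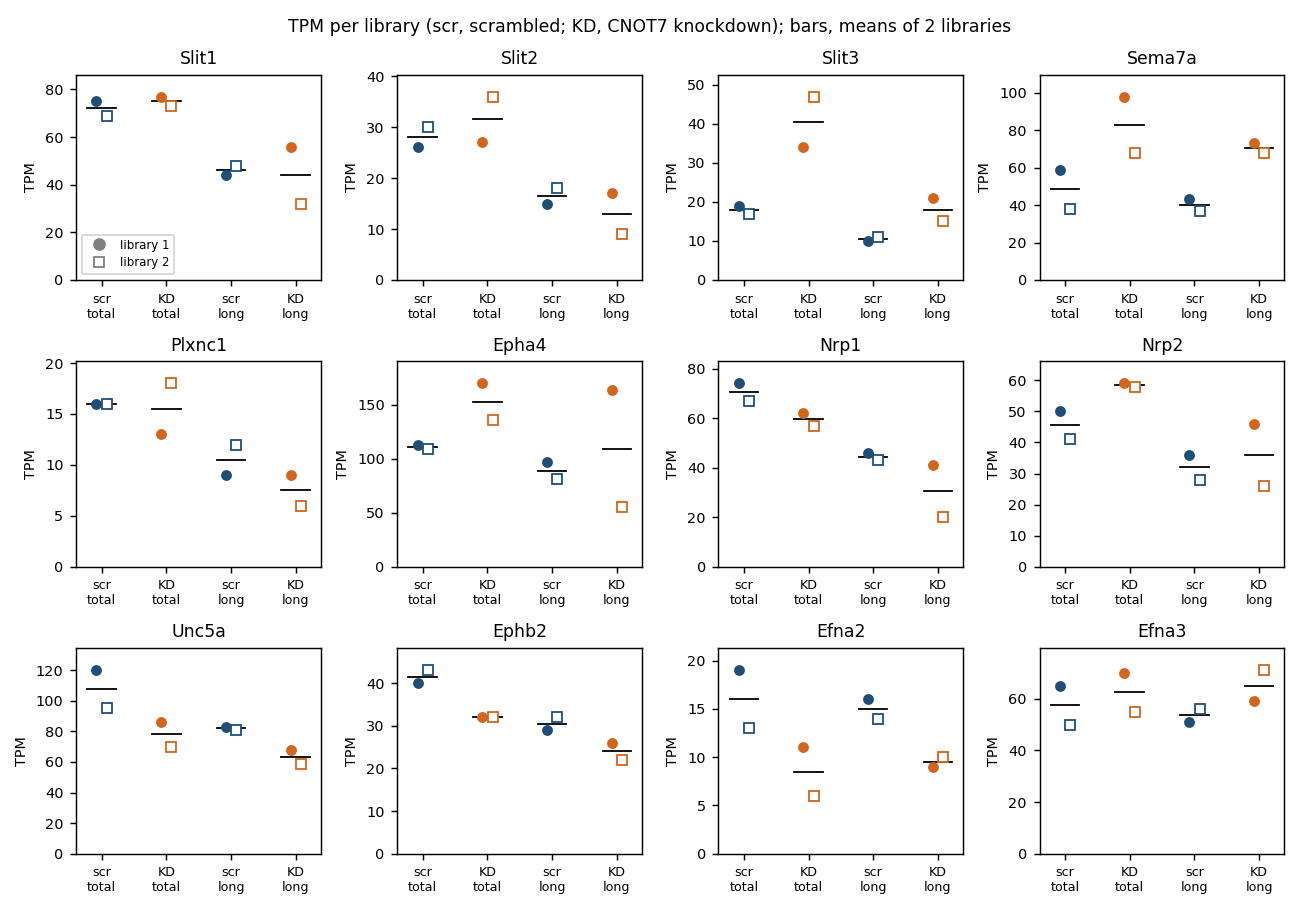
TPM of 12 guidance genes in each library, with library 1 as a filled circle, library 2 as an open square and the mean of the 2 as a bar, for scrambled (scr, blue) and knockdown (KD, orange) in total and long-tail RNA. Slit3 and Sema7a are higher in both knockdown libraries of each fraction, Unc5a, Ephb2, Nrp1 and Efna2 are lower, and the knockdown long-tail libraries differ most for Epha4 (164 and 55 TPM).

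Of the secreted class 3 semaphorins, 4 of 5 were lower and 1 was without a difference in knockdown total RNA, none with an unadjusted p under 0.05, and their median was -0.22 (-0.07 over all genes). Sema3c was at 29 and 37, 26 and 30, 18 and 25, and 16 and 12 TPM. Sema3e, the ligand of Plxnd1, was at 15 and 15, 13 and 14, 9 and 11, and 8 and 6 TPM, without overlap in either fraction. Its difference in long-tail RNA was -0.46 (SE 0.172, limma adjusted p = 0.552). Sema3f, a ligand of Nrp2, was at 7 and 7, 5 and 6, 4 and 5, and 4 and 6 TPM, lower in total RNA and overlapping in long-tail RNA.

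Among the 12 transmembrane semaphorins 3 were higher and 9 lower in knockdown total RNA, with a median of -0.18, a range of -0.51 to 0.27 and none with an unadjusted p under 0.05. Sema6b, the most abundant, was at 100 and 54 TPM in scrambled total and 104 and 76 in knockdown total libraries, and at 74 and 61 and then 93 and 66 in long-tail RNA. Here the spread between the 2 scrambled libraries was wider than the difference between the groups. Sema5b was at 23 and 21, 17 and 18, 14 and 16, and 12 and 13 TPM, lower in both fractions without overlap, with a difference in total RNA of -0.31 (SE 0.127, limma adjusted p = 0.794). Sema4g, at 31 and 26, 27 and 23, 20 and 20, and 20 and 18 TPM, and Sema4c, at 7 and 6, 6 and 6, 5 and 5, and 5 and 6 TPM, overlapped between knockdown and scrambled in both fractions.

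Plexins are the signalling receptors of the semaphorins. In knockdown total RNA 4 of 9 were higher and 5 lower, from -0.77 for Plxnb3 to 0.39 for Plxna2, with a median of -0.05, which turned to 0.02 after centring on each library's median, and none with an unadjusted p under 0.05. Plxnb2, with the highest mean over the 8 libraries (117 TPM, next to Epha4 with 116), was at 141 and 167, 126 and 137, 96 and 107, and 94 and 66 TPM. Plxnb1, the receptor of Sema4d, was at 76 and 81, 62 and 68, 44 and 53, and 41 and 28 TPM. Both B plexins lay lower in knockdown in each fraction without overlap, with differences of -0.22 (SE 0.195) for Plxnb2 and -0.27 (SE 0.203) for Plxnb1 in total RNA. Plxna1 was at 94 and 84, 87 and 85, 58 and 54, and 61 and 35 TPM and overlapped, while Plxna2, at 42 and 41 in scrambled and 51 and 59 in knockdown total libraries, lay higher (0.39).

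The neuropilins, coreceptors that bind class 3 semaphorins and vascular endothelial growth factor, lay in opposite directions in total RNA. Nrp1 was at 74 and 67, 62 and 57, 46 and 43, and 41 and 20 TPM. Nrp2 was at 50 and 41, 59 and 58, 36 and 28, and 46 and 26 TPM. Nrp1 was lower in both fractions and Nrp2 higher in total RNA, in each case without overlap, and Nrp2 overlapped in long-tail RNA. The differences in total RNA, -0.24 (SE 0.317) and 0.36 (SE 0.287), were of the size of their errors. The fit takes these errors from the spread within all 4 groups. That spread includes the knockdown long-tail libraries, at 41 and 20 TPM for Nrp1 and 46 and 26 TPM for Nrp2. The part of Nrp1 in the summed neuropilin TPM was 59.7% and 62.0% in scrambled and 51.2% and 49.6% in knockdown total libraries, and 56.1% and 60.6% against 47.1% and 43.5% in long-tail RNA. It was thus lower in every knockdown library than in every scrambled library, and this ratio of levels was not tested.

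Of the GPI-anchored ephrins-A, 2 of 5 were higher and 3 lower in knockdown total RNA. Efna2 was at 19 and 13, 11 and 6, 16 and 14, and 9 and 10 TPM. Its libraries did not overlap in either fraction, and the difference was -0.87 in total RNA (SE 0.304, interval -1.63 to -0.11, limma adjusted p = 0.717) and -0.61 in long-tail RNA (SE 0.304). Efna3, the most abundant of the class, was at 65 and 50, 70 and 55, 51 and 56, and 59 and 71 TPM, overlapping in total RNA and higher in long-tail RNA (0.27, SE 0.194). The remaining ephrins-A stood at 1 to 7 TPM in every library, where rounding is coarse. Efna4 was at 6 and 5, 4 and 3, 5 and 7, and 6 and 6 TPM, Efna5 at 4 and 3, 5 and 5, 3 and 3, and 4 and 3, and Efna1 at 2 and 2, 2 and 1, 3 and 2, and 1 and 1. Efna4 was lower (-0.54) and Efna5 higher (0.42) in knockdown total RNA without overlap.

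The transmembrane ephrins-B had 1 member higher and 2 lower in total RNA. Efnb3 was at 54 and 63, 43 and 55, 39 and 60, and 36 and 53 TPM, and Efnb2 at 20 and 22, 24 and 24, 14 and 16, and 17 and 13. Efnb2 lay above the scrambled libraries in total RNA only by 2 to 4 TPM, and none of the 3 had an unadjusted p under 0.05.

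The EphA receptors, tyrosine kinases that bind mainly ephrins-A, were higher in 6 of 8 members in knockdown total RNA (32.6% of all genes were higher), with a median of 0.32 against -0.07 over all genes. In long-tail RNA their median was -0.04, 0.11 after centring and 0.29 without knockdown long-tail library 2. The EphA sum in long-tail RNA was 155 and 131 TPM in scrambled and 237 and 91 in knockdown libraries. Knockdown long-tail library 1 thus lay above both scrambled libraries and library 2 below both. In total RNA the EphA sum was 188 and 183 TPM in scrambled and 260 and 231 in knockdown libraries. Epha4, a receptor on dendritic spines, made up most of it, at 113 and 109 in scrambled total and 170 and 136 in knockdown total libraries. In long-tail RNA Epha4 was at 97 and 81 in scrambled and 164 and 55 in knockdown libraries, so that 1 knockdown library lay far above and 1 below both scrambled libraries. The difference of Epha4 was 0.45 in total RNA (SE 0.488, interval -0.76 to 1.67, limma adjusted p = 0.992), and it did not exceed the spread that the fit estimates from all 8 libraries. Epha5 was at 31 and 25, 40 and 35, 23 and 14, and 35 and 10 TPM, with the same pattern.

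Among less abundant EphA receptors, Epha6 was at 15 and 18, 18 and 28, 13 and 12, and 14 and 6 TPM, and Epha10 at 6 and 4, 7 and 5, 4 and 3, and 5 and 4 TPM. Epha8 was at 1 and 1, 2 and 3, 1 and 1, and 2 and 2 TPM. It had the smallest unadjusted p of all members in total RNA (0.00164, difference 0.79, SE 0.140, limma adjusted p = 0.303), and this rests on steps of 1 to 2 TPM in rounded values.

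EphB receptors bind mainly ephrins-B and take part in the assembly of excitatory synapses. Ephb2 was at 40 and 43, 32 and 32, 29 and 32, and 26 and 22 TPM. It was lower without overlap in both fractions, with differences of -0.36 (SE 0.125, interval -0.68 to -0.05, limma adjusted p = 0.709) and -0.34 (SE 0.125, limma adjusted p = 0.554). Ephb4 was lower in the same way at 9 and 10, 8 and 8, 7 and 7, and 6 and 5 TPM, while Ephb1, at 24 and 19, 29 and 17, 17 and 14, and 24 and 13 TPM, overlapped. The family split into 3 higher and 2 lower in total RNA.

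All 3 netrins were lower in knockdown in both fractions, with medians of -0.27 in total RNA and -0.42 in long-tail RNA (-0.44 without knockdown long-tail library 2) and none with an unadjusted p under 0.05. Ntn4, a netrin of basement membranes, was at 39 and 49, 34 and 38, 25 and 31, and 19 and 24 TPM, without overlap. Ntn1, the ligand of Dcc, was at 11 and 16, 9 and 13, 8 and 12, and 7 and 7 TPM and overlapped in total RNA. Ntn3 was at 6 and 4, 5 and 4, 5 and 5, and 4 and 3 TPM.

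Of the 5 netrin receptors 3 were higher and 2 lower in knockdown total RNA. Unc5a was at 120 and 95, 86 and 70, 83 and 81, and 68 and 59 TPM. It lay lower in both fractions without overlap, with a difference of -0.46 in total RNA (SE 0.168, interval -0.87 to -0.04, limma adjusted p = 0.739) and -0.37 in long-tail RNA (SE 0.168, limma adjusted p = 0.600). Unc5b was lower in the same way but at 4 and 4, 2 and 3, 3 and 3, and 1 and 1 TPM, and it had the smallest unadjusted p of the members in long-tail RNA (0.000610, difference -1.0, limma adjusted p = 0.264). Unc5c, at 18 and 16, 18 and 21, 11 and 10, and 12 and 5 TPM, and Dcc, at 12 and 14, 11 and 18, 6 and 8, and 7 and 4 TPM, overlapped in both fractions.

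In long-tail RNA 46 of 64 members were lower and 18 higher in knockdown, with a median of -0.23 against -0.10 over all genes (61.2% of all genes lower). After the log2 values were centred on each library's median, 38 were lower and 26 higher. This split rests on knockdown long-tail library 2: without it 29 members were lower and 31 higher with a median of 0.00, and without library 1, 49 were lower and 13 higher. Without library 2 the plexins went from a median of -0.29 to 0.12, the Slits from -0.11 to 0.28 and the Dcc and Unc5 receptors from -0.37 to 0.01. For Slit3, Sema7a and Unc5a, whose libraries did not overlap, leaving out 1 library cannot change the direction, so such a fit adds nothing for them. When the 4 long-tail libraries alone were fitted, 2 members passed, Epha8 and Unc5b (0.607% of all genes), both at 1 to 3 TPM there. The knockdown difference in long-tail RNA had a Spearman correlation with transcript length of -0.41 over all genes, and 0.13 without library 2. Member medians were -0.23 against 0.01 for other genes under 2000 nt, and -0.16 against -0.05 up to 4000 nt. They were -0.11 against -0.20 up to 6000 nt, -0.23 against -0.31 up to 8000 nt and -0.34 against -0.41 beyond.

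The long-tail libraries gave most guidance mRNAs a smaller share of TPM than the total libraries did. TPM are shares within a library, so this is a difference of shares and not of tail length. In scrambled neurons 58 of 64 members were lower in long-tail than in total RNA, 4 higher and 2 without a difference, against 74.3% lower over all genes. The member median was -0.45 and the median over all genes -0.22. In knockdown neurons 59 were lower, 4 higher and 1 without a difference, against 68.7% lower over all genes, with medians of -0.54 and -0.22. Relative to the median of all genes, 52 members were below it in scrambled and 48 in knockdown neurons. With log2 values centred on each library's median, 51 and 41 members were lower. No member and no other gene passed at an adjusted p under 0.05 in either comparison (limma, 0% in both), with 17 members at an unadjusted p under 0.05 in scrambled (13.2% of all genes), all lower (12.9% of all genes; 0.263% were higher), and 34 in knockdown neurons (26% of all genes), of which 33 were lower (25.1% of all genes) and 1 higher (0.921% of all genes). These counts depend on the scaling. After centring, 1 member was lower in scrambled neurons, where 346 of all genes were higher and 96 lower, and 16 members were lower and 1 higher in knockdown neurons, where 1632 of all genes were higher and 926 lower. After quantile normalization 1 member was lower in scrambled neurons (247 of all genes). In knockdown neurons 19 were then lower (1236 of all genes) and 1 higher (1208 of all genes). Rescaled without Rn45s, 4 were lower in scrambled neurons (454 of all genes). In knockdown neurons 23 were then lower (2800 of all genes) and 1 higher (400 of all genes). With 1 library left out, these counts changed much. In scrambled neurons the count was lowest without scrambled long-tail library 1 and highest without either knockdown long-tail library. In knockdown neurons it was lowest without knockdown total library 2 and highest without knockdown long-tail library 1. The share over all genes was lowest and highest in the same fits. In scrambled neurons 44 members were lower without overlap (39.6% of all genes) and 1 higher (4.69%), and in knockdown neurons 41 were lower (40% of all genes) and 1 higher (4.04%). In both at once 38 were lower (29.4% of all genes) and none higher (1.35%). Without knockdown long-tail library 1, 26 members passed at an adjusted p under 0.05 in knockdown neurons (15.5% of all genes), and without library 2 none did and the member median was -0.37.

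By family, the Slits had the lowest medians of this difference, at -0.72 in scrambled and -1.13 in knockdown neurons. The Slit3 difference was -0.72 in scrambled (SE 0.225, limma adjusted p = 0.377) and -1.13 in knockdown neurons (SE 0.225, limma adjusted p = 0.140). Next in scrambled neurons came the plexins with -0.58 and -0.88, the neuropilins with -0.57 and -0.88, the class 3 semaphorins with -0.55 and -0.87 and the Robos with -0.53 and -1.01. The netrins stood at -0.40 and -0.56, the Dcc and Unc5 receptors at -0.42 and -0.79, the transmembrane semaphorins at -0.35 and -0.35, the EphA receptors at -0.35 and -0.59, the EphB receptors at -0.39 and -0.31 and the ephrins-B at -0.46 and -0.21. Without knockdown long-tail library 2 the medians in knockdown neurons were -0.84 for the Slits, -0.47 for the plexins, -0.43 for the neuropilins, -0.47 for the Robos, -0.21 for the EphA receptors, -0.47 for the ephrins-B and -0.07 for the ephrins-A, and Unc50 was at -0.06. After centring on each library's median, the knockdown medians of EphB receptors (0.02) and ephrins-B (0.12) and the scrambled median of ephrins-A (0.17) were above 0. Ephrins-A were near 0, at -0.07 and 0.06, with 2 of 5 members higher in scrambled and 3 of 5 in knockdown neurons, and Unc50 was higher at 0.18 and 0.15. Efna4 was the only member with an unadjusted p under 0.05 that was higher in the long-tail libraries, by 0.65 in knockdown neurons (SE 0.194, limma adjusted p = 0.143) at levels of 3 to 6 TPM. These families differ in transcript length, and the difference between families was not tested.

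The longest coding transcript of the 64 members had a median of 4916 nt, against 3236 nt over the 12619 tested genes with a model (92.2% of all), and 44 members (68.8%) reached 4000 nt against 36.3% of all genes. Across genes, length and the long-tail minus total difference had a Spearman correlation of -0.74 in scrambled and -0.77 in knockdown neurons (n = 12619), and of -0.61 and -0.75 over the 64 members. These are descriptions across genes of the same libraries, and genes are not independent replicates. Members were also set beside genes of like length. From 2000 to under 4000 nt, 17 members had a median of -0.26 in scrambled neurons against -0.20 for the other 5077 genes, and -0.18 against -0.17 in knockdown neurons. From 4000 to under 6000 nt, 19 members had a median of -0.40 in scrambled neurons against -0.38 for the other 2703 genes, and -0.46 against -0.49 in knockdown neurons. From 6000 to under 8000 nt, 14 members had -0.53 against -0.49 in scrambled and -0.75 against -0.72 in knockdown neurons. From 8000 nt on, 11 members had -0.56 against -0.55, and -0.97 against -0.90. The 3 members under 2000 nt were Efna1, Efna4 and Unc50, with medians of 0.18 and 0.15 in a range where all genes had 0.07 and 0.16.

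**Figure D5:**
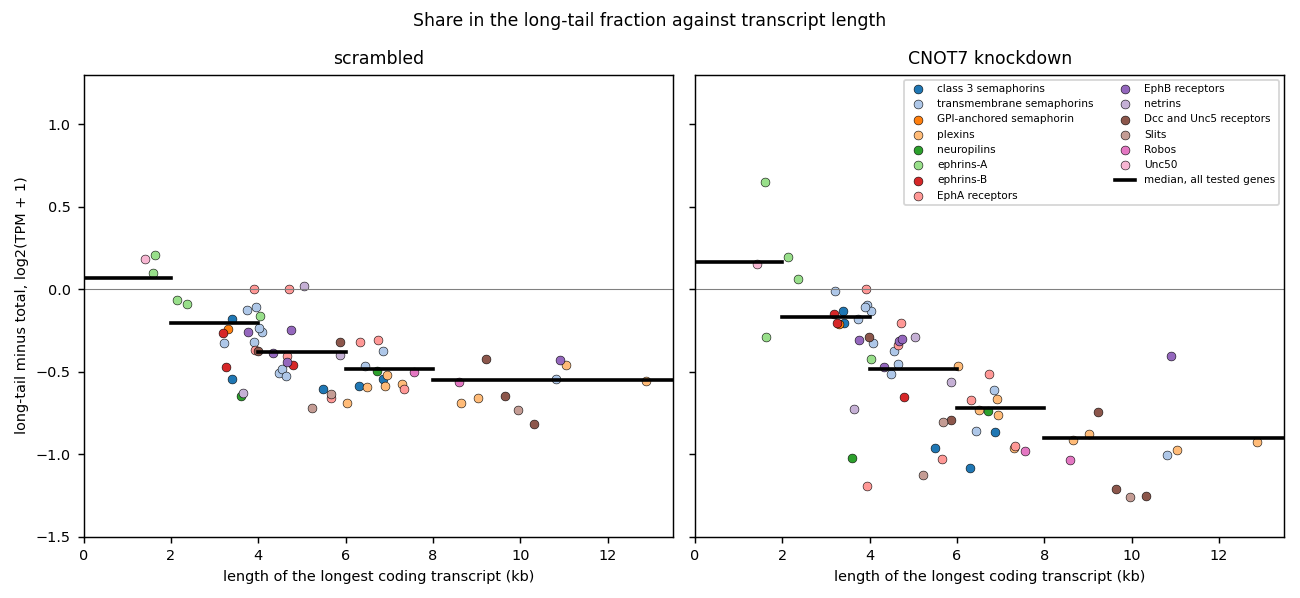
Long-tail minus total difference of each of the 64 genes on the log2(TPM + 1) scale against the length of the longest coding transcript in kb, in scrambled (left) and knockdown neurons (right), coloured by family. Black lines are the medians of all tested genes with a length in 5 ranges, and the members scatter around them in both panels. Unc50 and most ephrins-A lie at the short end, and Plxna4 and Plxna2 at the long end. The Slits spread from 5228 nt (Slit3) and 5673 nt (Slit1) to 9960 nt (Slit2).

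Whether the knockdown difference itself changed from total to long-tail RNA was tested as an interaction, which uses the same libraries as the comparisons above. No member had even an unadjusted p under 0.05 (0.877% of all genes, 0.395% higher and 0.482% lower), the smallest adjusted p was 1, and no other gene passed (0%). Without knockdown long-tail library 1, 17 members had an unadjusted p under 0.05 (11% of all genes). The members split into 45 lower and 18 higher with a median of -0.18 against -0.02 over all genes (53.5% lower), and into 36 lower and 28 higher after centring. Beside other genes of like length, member medians were -0.03 against 0.08 under 2000 nt and 0.03 against 0.01 up to 4000 nt. They were -0.16 against -0.11 up to 6000 nt, -0.28 against -0.25 up to 8000 nt and -0.44 against -0.37 beyond. The 3 smallest unadjusted p-values in each direction belonged to Unc5b (-0.47, SE 0.205), Efna4 (0.55, SE 0.275), Efna1 (-0.50), Epha6 (-0.83), Sema3f (0.42) and Sema4c (0.21). For Slit3 the interaction was -0.40 (SE 0.318), so that a difference between the fractions in its response was not shown. Without knockdown long-tail library 2 the members split into 28 lower and 34 higher, with a median of 0.02, and the Spearman correlation with length over all genes went from -0.46 to 0.19. Between the 2 knockdown long-tail libraries themselves, library 2 minus library 1 had a Spearman correlation with length of -0.64 over all genes and -0.69 over the members.

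Members with the polyadenylation element had a median long-tail minus total difference of -0.41 in scrambled and -0.66 in knockdown neurons, and those without it -0.48 and -0.46. Over all genes the medians were -0.27 and -0.32 with the element and -0.22 and -0.21 without. In total RNA the knockdown difference had a median of -0.03 for the 22 members with the element and -0.07 for the 42 without. Slit3, at 1.11, and Efna2, at -0.87, whose windows are printed above, both carry it, and so do members on both sides of 0.

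Proteins that act with the guidance receptors were taken from 5 lists. In total RNA 2 of 20 tested partners of semaphorins and plexins were higher and 1 lower at an unadjusted p under 0.05, where 2.05% of all genes were higher and 4.3% lower. Of the 22 tested ephrin and Eph partners 2 were lower. In long-tail RNA all 22 lay below 0 (61.2% of all genes did), with a median of -0.29 against -0.10 over all genes. Without knockdown long-tail library 2, 15 of the 22 did, with a median of -0.07. The Slit and Robo partners had 1 of 14 higher and 3 lower, the netrin and Unc5 partners 1 of 26 higher, and the adhesion coreceptors and myelin inhibitor receptors 1 of 23 lower. None passed at an adjusted p under 0.05 (limma).

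Ablim3, an actin-binding LIM protein of the family linked to netrin signalling, was at 6 and 6, 16 and 16, 5 and 4, and 13 and 12 TPM. Its difference was 1.28 in total RNA (SE 0.133, limma adjusted p = 0.0669), and the authors' deposited tables list it at 1.23 in total and 1.20 in long-tail RNA. Sdc3, a heparan sulphate proteoglycan of the kind that binds Slits, was at 198 and 181, 260 and 247, 138 and 129, and 205 and 196 TPM, and Gpc1, another one, at 158 and 130, 114 and 97, 130 and 112, and 105 and 95 TPM. The first lay higher and the second lower in knockdown without overlap. Adam10, a protease that sheds ephrins, was at 54 and 62, 39 and 44, 39 and 49, and 25 and 21 TPM, and the authors' deposited table for long-tail RNA lists it at -0.72 (adjusted p 0.0110).

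Among the collapsin response mediators, which relay semaphorin signals to microtubules, Dpysl5 was at 87 and 81, 104 and 98, 58 and 57, and 77 and 75 TPM and Dpysl4 at 74 and 69, 58 and 55, 56 and 61, and 46 and 50 TPM. They lay in opposite directions without overlap in both fractions. Omg, an inhibitor of axon growth made by oligodendrocytes and neurons, was at 82 and 64, 52 and 43, 63 and 63, and 41 and 47 TPM. Beside it stands the lower sum of oligodendrocyte markers given above, whose part in the values of Omg and of the guidance genes lower in knockdown was not tested.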

How the data were processed

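The labels' protocols give poly(A) selection on poly(U) agarose and the Nextflex qRNA-Seq Kit; its molecular indexes may or may not have been counted, with tool versions and roles likewise not given in the sources used here. TopHat2, RSEM, CASAVA, DESeq, DESeq2 and the mm10 build are named, per the submitters' processing notes. The deposited gene table holds TPM that the authors rounded to whole numbers, here treated as a score. The authors' 2 deposited result tables list genes with a log2 fold change, p-values raw and adjusted, and a mean signal of normalized counts, which was not used.

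Here log2(TPM + 1) was computed where the mean reached 1 TPM, which left 13681 genes. One limma fit (3.58.1, R 4.3.3, eBayes with trend) used 4 group means and all 8 libraries, and 5 two-sided contrasts were adjusted by Benjamini-Hochberg over every tested gene. A run on simulated data without an outlying library checked the signs and sizes of differences. It does not tell how often real differences are called in these libraries. For a single gene in 2 against 2 libraries the smallest exact permutation p is 0.333, and no such test was made. Transcript lengths and 3′ UTRs came from GENCODE M21 (GRCm38), matched by symbol for all 64 members. The members and lists were chosen with earlier results of these data known. Described with values were the 2 most abundant members per family, those with the smallest p per contrast and direction, those in a deposited table and those without overlap in both fractions; from each partner list, up to 3 genes by smallest p and those in a deposited table could be named; a further partner list is not reported here. Alternatives were 2 other pseudocounts, 3 filters, 3 scalings, no trend, the replicate number as a block, the 4 libraries of a contrast alone, and each library left out.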

Additional observations from a re-analysis of the deposited data

How the results depend on the processing

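No member was called at an adjusted p under 0.05 in any of the 5 comparisons under the other pseudocounts, filters or scalings, without the trend, or with the replicate block (limma). The exceptions were fits with fewer libraries. With only the 4 long-tail libraries, 2 members were called between knockdown and scrambled, Epha8 and Unc5b, both at 1 to 3 TPM in those libraries (0.607% of all genes called). With each library left out in turn, the number called for long-tail minus total in knockdown ran from 0 to 26, with 26 reached without knockdown long-tail library 1 (15.5% of all genes called), and it was 0 throughout for the other 4 comparisons. Leaving out libraries moved the percentage of members below 0 for knockdown in long-tail RNA between 45.3% and 76.6%, and for the interaction between 43.8% and 79.7%, with the lowest values without knockdown long-tail library 2 in both cases.

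Sign changes were counted for the long-tail minus total differences with the smallest p per direction. Those near 0 changed sign in 8 cases, each with 1 library left out, and over all left-out libraries they ran as follows. In knockdown neurons Efna2 ran from -0.19 (without knockdown total library 2) to 0.58, Efna3 from -0.11 (the same library) to 0.23, with -0.07 without knockdown long-tail library 2, and Unc50 from -0.063 (without knockdown total library 2; -0.058 without knockdown long-tail library 2) to 0.37. In scrambled neurons Efna4 ran from -0.11 (without scrambled long-tail library 2; -0.01 without total library 2) to 0.30, and Ntn3 from -0.22 (without scrambled total library 2) to 0.26. Members outside this count changed sign too. Without knockdown long-tail library 2, 4 transmembrane semaphorins, 1 plexin, 1 EphA and 1 EphB receptor were higher in long-tail RNA of knockdown neurons. With all 8 libraries no member of these families was. Over all 64 members, the number lower in long-tail RNA ran from 52 (without scrambled total library 1) to 61 in scrambled and from 53 to 60 in knockdown neurons. The cause was not tested.

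The labels do not say that equal replicate numbers mark a shared culture or day, and the main design has no block. In the data, every library 1 lay above 0 on the second principal component (20.4% of the variance; 10.8 to 26.9) and every library 2 below it (-23.0 to -5.08). The correlation of same-numbered deviations ran from -0.11 (knockdown total and long-tail) to 0.60, so not every pair was above 0.1. With the number as a replicate block, 0 members were called in each comparison and 11, 10, 20, 37 and 0 had an unadjusted p under 0.05. With the numbers crossed over the 4 knockdown libraries, an alternative chosen after seeing the data, 0 were called and 15 had an unadjusted p under 0.05. Depth is unknown, and with whole-number TPM the members at 1 to 5 TPM differ in steps of 1 TPM.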
